A study of Mus musculus with 18 samples.

Results

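The genes described here are 5 members of the mouse Cyp2c cluster of cytochrome P450 genes, Cyp2c55, Cyp2c65, Cyp2c66, Cyp2c68 and Cyp2c69, taken by symbol from a count table of 36757 genes in which the other Cyp2c symbols number 6. They were chosen from earlier values of the same libraries, in which Cyp2c69 was lower in libraries labelled RNF138-/- of the colitis and colitis-associated cancer (CAC) models and Cyp2c68 was lower in those of the colitis model and the organoids. Their differences between genotypes are therefore given as descriptions, without p-values and with nothing read from how many pass a threshold, and only the differences between models, averaged over the genotypes, are reported as tests.

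RNA from colorectal tissue or organoids of C57BL/6 mice was sequenced in 18 libraries, 3 labelled wild type (RNF138 fl/fl mice) and 3 labelled RNF138-/- in each of 3 models. In the colitis model, mice aged 6 to 8 weeks drank 2% dextran sulfate sodium (DSS) for 7 days and regular water for 14 days, the cycle was repeated, and tissue was taken 4 weeks after the last DSS. In the CAC model, mice of the same age received 10 mg/kg of the carcinogen azoxymethane (AOM) intraperitoneally and, after 4 days, the same DSS cycles. The organoids were grown in matrigel from digested tumor fragments of the CAC model. All groups had thus been exposed to DSS, no untreated colon was analysed here, and the sources used here do not give the promoter or cell type that drives the deletion, the number of mice behind each library or whether replicates are separate mice, so the p-values below measure only the spread between libraries. Rnf138 itself, the targeted gene, had a normalized level, in CPM (counts scaled to library size), of 16.0 to 25.5 in the 3 RNF138 fl/fl colitis libraries and 18.1 to 19.5 in the 3 labelled RNF138-/-, 21.0 to 28.0 against 39.6 to 45.3 CPM in CAC, and 37.4 to 55.2 against 42.6 to 49.9 CPM in the organoids. In CAC its level was thus higher in all 3 labelled RNF138-/-, and in no model did it fall beyond the spread of the libraries. That does not bear out the label, but a count over the whole gene need not fall where only some exons are deleted, and the deleted part is not given in the sources used here. The groups are called by their labels throughout.

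Cyp2c enzymes sit in the membrane of the endoplasmic reticulum and add oxygen to fatty acids, drugs and steroids. With arachidonic acid they form epoxyeicosatrienoic acids and hydroxylated products, which act on vessel tone, inflammation and ion transport. They take their electrons from cytochrome P450 oxidoreductase (Por), soluble epoxide hydrolase (Ephx2) turns the epoxides into diols, and in liver and gut their transcription is known to respond to the nuclear receptors PXR (Nr1i2), CAR (Nr1i3) and HNF4A (Hnf4a). Cyp2c55 is a known target of PXR and CAR.

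The 5 genes lie on chromosome 19 of mm10 (GENCODE M21) in 2 groups of opposite strand. Cyp2c55 (ENSMUSG00000025002.5, chr19:39007019-39042693), Cyp2c65 (ENSMUSG00000067231.4, chr19:39061015-39093944) and Cyp2c66 (ENSMUSG00000067229.3, chr19:39113898-39187072) are on the plus strand within 180.1 kb. Cyp2c68 (ENSMUSG00000074882.3, chr19:39688834-39741054) and Cyp2c69 (ENSMUSG00000092008.1, chr19:39842814-39886799) are on the minus strand within 198.0 kb, 501.8 kb further along, with Cyp2c40 between them. The exons of Cyp2c55 overlap a microRNA gene, Gm23800, and the sources used here do not say whether reads were counted by strand. The other members overlap no annotated gene.

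Upstream of the transcription start, 2 pairs of members were near copies of each other and Cyp2c55 was close to none. All 5 genes had an entry in the RefSeq promoter table (GRCm38.p6), and over the 250 bases before the start Cyp2c65 and Cyp2c66 were 94.1% identical in 221 aligned bases and Cyp2c68 and Cyp2c69 were 94.3% identical in 246, against 63.6% to 69.0% for every other pair of members. RefSeq starts differ from those of GENCODE M21 for some members. For Cyp2c69 the base before the RefSeq start is 39886770, inside the gene as placed above, which ends at 39886799. For Cyp2c68 that base is 39741102, beyond the gene's end at 39741054. The 120 bases just before each RefSeq start are shown, 5′ to 3′ on the strand of the gene, because they hold every match of the members to CAAAGTCCA, and the stretch of Cyp2c66, which holds no match, is shown beside its near copy. They run from chr19:39006899-39007018 for Cyp2c55, chr19:39060886-39061005 for Cyp2c65, chr19:39113778-39113897 for Cyp2c66, chr19:39741102-39741221 for Cyp2c68 and chr19:39886770-39886889 for Cyp2c69, and capitals mark matches to the motifs described next.

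Cyp2c55: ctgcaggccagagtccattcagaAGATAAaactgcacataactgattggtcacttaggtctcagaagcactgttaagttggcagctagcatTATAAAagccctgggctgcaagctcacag
Cyp2c65: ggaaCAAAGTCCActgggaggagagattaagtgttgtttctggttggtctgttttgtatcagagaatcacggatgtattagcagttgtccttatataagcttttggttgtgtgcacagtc
Cyp2c66: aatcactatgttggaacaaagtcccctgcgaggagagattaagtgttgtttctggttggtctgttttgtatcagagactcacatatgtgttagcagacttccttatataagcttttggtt
Cyp2c68: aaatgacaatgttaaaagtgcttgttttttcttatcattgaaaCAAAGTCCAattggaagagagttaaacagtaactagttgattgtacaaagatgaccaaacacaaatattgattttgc
Cyp2c69: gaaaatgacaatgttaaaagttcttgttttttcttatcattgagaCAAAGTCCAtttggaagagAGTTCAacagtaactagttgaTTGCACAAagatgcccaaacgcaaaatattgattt

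The motif CAAAGTCCA, a binding sequence of HNF4, was found once upstream of Cyp2c65, Cyp2c68 and Cyp2c69, at bases -116 to -108, -77 to -69 and -75 to -67 from the start, and its exact letters were not found upstream of Cyp2c55 or Cyp2c66. It was present on either strand in the same 250 bases of 0.384% of 32851 promoters. The motif was not particular to the members. It also stood upstream of their near copies Cyp2c40 (-45 to -37) and Cyp2c67 (-125 to -117), which had at most 1.00 and 0.439 CPM in any library. Upstream of Cyp2c69 there was also AGTTCA, a nuclear receptor half-site present in 11.8% of promoters, and TTGCNNAA, a C/EBP motif present in 9.56%. This TTGCNNAA match, at bases -35 to -28 from the RefSeq start, lies partly inside the gene as GENCODE M21 places it. Upstream of Cyp2c55 the GATA-factor motif AGATAA was found, as in 9.99% of promoters. The motif TATAAA stood at bases -29 to -24 of Cyp2c55 and further upstream of Cyp2c65 and Cyp2c66, and it was present in 12.4% of promoters. No match was found for the half-site AGGTCA (14.0% of promoters), the CDX motif TTTATGG (2.43%), the HNF1 motif (0.00913%) or the NF-kB motif (17.6%). A match describes letters and does not show that a factor binds there.

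The likeness extended into the transcripts, which limits how far single genes can be told apart. The longest protein-coding transcripts of Cyp2c65 and Cyp2c66 were 96.2% identical, and those of Cyp2c68 and Cyp2c69 96.4%, while Cyp2c55 was 73.1% to 75.2% identical to the other members. Of the 50-base windows in each gene's transcripts, 1.13% of those of Cyp2c55 also occurred in another gene, 20.6% of Cyp2c65 and 19.5% of Cyp2c66, mostly in each other. The share was 43.3% for Cyp2c68 and 54.3% for Cyp2c69, mostly with Cyp2c40, and with windows of 150 bases it was 8.83% and 20.2%. Reads from shared stretches may be left out or misplaced, so levels of the close pairs are uncertain. Cyp2c40, the closest copy, had at most 1.00 CPM in any library and 41 counts over the 3 RNF138 fl/fl colitis libraries against 7 over the 3 labelled RNF138-/-, and Cyp2c67 at most 0.439 CPM.

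Of the 12 tissue libraries 3 stood apart from the rest by Hoxb13, a homeobox gene of the distal hindgut. Hoxb13 had 4.90 and 7.67 CPM in colitis libraries 2 and 3 labelled RNF138-/- and 4.53 CPM in RNF138 fl/fl CAC library 3, against 74.1 to 259.9 CPM in the other 9 tissue libraries and 56.6 to 136 CPM in the organoids. Hoxd13, another distal gene, was at 0.0605, 0.0504 and 0.925 CPM in the same 3 libraries and between 2.76 and 203 CPM in the other 9. Other distal Hox genes did not set these libraries apart in the same way, with Hoxa13 at 39.7, 15.7 and 22.8 CPM against 20.9 to 57.5 in the other 9 and Hoxd11 at 7.01, 3.73 and 0.555 CPM against 0.0531 to 20.3. Differences of the members in tissue are given with and without these 3 libraries where stated, and the part of position along the gut in the results was not tested. Epithelial markers were present in every library, with a summed level of Epcam, Cdh1, Krt8 and 6 others between 7489 and 15237 CPM. Alb, the defining hepatocyte gene, had 0.151 to 3.33 CPM in colitis, 3.7 to 88.2 in CAC and 253 to 1978 in the organoids, but the hepatocyte list of 10 genes did not move as one, with 5 higher and 1 lower of 7 tested from colitis to CAC (median log2 difference 3.02) and 2 higher and 4 lower of 7 from CAC to the organoids (median -2.37, Ttr at -2.91).

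Cyp2c55 was the most abundant member in colitis. In the RNF138 fl/fl colitis libraries it had 649, 499 and 837 CPM, and in those labelled RNF138-/- 423, 1527 and 1534 CPM. The groups overlapped, since library 1 labelled RNF138-/- was the lowest of the 6 and libraries 2 and 3, the 2 with little Hoxb13, were the highest. The log2 fold change was 0.85 (SE 0.47), and without those 2 libraries it was -0.66 (SE 0.32). In CAC the RNF138 fl/fl libraries had 36.9, 88.5 and 2021 CPM and those labelled RNF138-/- 0.372, 0.526 and 2.11 CPM. All 3 labelled RNF138-/- were below all 3 RNF138 fl/fl, and the highest value of any member in the series was that of RNF138 fl/fl library 3, the one with little Hoxb13. The log2 fold change was -9.56 (SE 2.07) with it and -5.95 (SE 0.73) without it. In the organoids the level was low in both genotypes, with 4.81, 2.82 and 14.8 CPM in RNF138 fl/fl and 1.95, 2.06 and 2.53 CPM in those labelled RNF138-/-. These groups did not overlap but lay close together, and the log2 fold change of -1.83 (SE 0.57) was -0.87 (SE 0.32) without RNF138 fl/fl library 3.

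Cyp2c65 moved with Cyp2c55 at a lower level. In colitis it had 28.8, 15.9 and 40.7 CPM in RNF138 fl/fl and 56.7, 211 and 361 CPM in libraries labelled RNF138-/-. The latter were all higher, with a log2 fold change of 2.92 (SE 0.65), and without the 2 libraries with little Hoxb13 it was 0.98 (SE 0.43), from a single library of 56.7 CPM. In CAC the values were 7.87, 8.88 and 463 CPM against 0.85, 0.121 and 1.03 CPM. The libraries labelled RNF138-/- were all lower, opposite to colitis, by a log2 fold change of -8.02 (SE 2.13), or -3.66 (SE 0.68) without RNF138 fl/fl library 3. In the organoids it was at or below 0.629 CPM in all 6 libraries and the genotypes overlapped.

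Cyp2c66, the near copy of Cyp2c65, was found in few libraries. Its counts were 0, 2 and 1 in RNF138 fl/fl colitis and 0, 13 and 257 in colitis labelled RNF138-/-. In CAC it had 0, 0 and 19 counts in RNF138 fl/fl and 0 in every library labelled RNF138-/-, and in the organoids it had 0 counts throughout. The 3 libraries with over 3 counts, at 0.786, 13.0 and 1.76 CPM, were the 3 with little Hoxb13. Pooled over libraries, the colitis ratio of libraries labelled RNF138-/- to RNF138 fl/fl was 86.7 (exact binomial 95% interval 29.3 to 423, counting error only), and 257 of the 270 counts came from library 3. It did not pass the filter on low counts within any model.

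**Figure D1:**
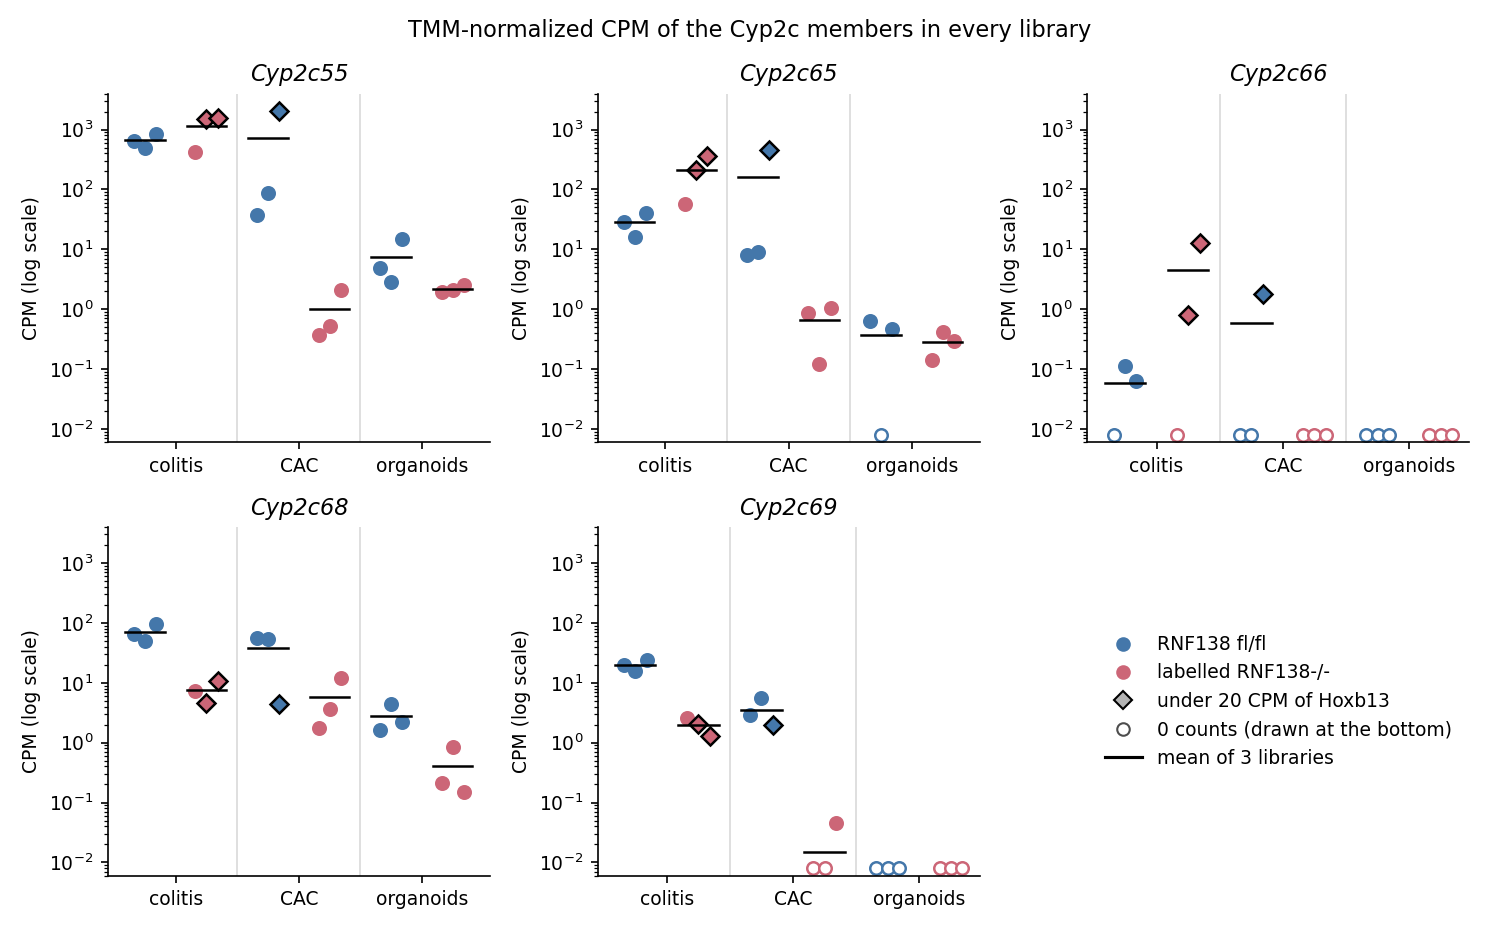
TMM-normalized CPM (log axis) of the 5 members in each of the 18 libraries, grouped by model and genotype, with the mean of 3 libraries as a line and libraries with 0 counts drawn open at the bottom. The 3 libraries under 20 CPM of Hoxb13 (diamonds) hold the highest Cyp2c55, Cyp2c65 and Cyp2c66 of their model, whereas Cyp2c68 and Cyp2c69 of colitis labelled RNF138-/- lie below all RNF138 fl/fl libraries whether or not a diamond is drawn.

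Cyp2c68, on the other strand, was lower in most libraries labelled RNF138-/-. In colitis it had 65.8, 50.8 and 94.4 CPM in RNF138 fl/fl and 7.43, 4.59 and 10.8 CPM in those labelled RNF138-/-. The groups did not overlap, and library 1 labelled RNF138-/-, with 74.1 CPM of Hoxb13, was as low as the other 2. The log2 fold change was -3.16 (SE 0.38), a 9.22-fold difference of the means, and -3.26 (SE 0.44) without the 2 libraries with little Hoxb13. In CAC the values were 55.9, 53.5 and 4.35 CPM in RNF138 fl/fl and 1.75, 3.64 and 11.8 CPM in those labelled RNF138-/-. The groups overlapped only through RNF138 fl/fl library 3, and the log2 fold change was -2.74 (SE 1.03) with it and -3.25 (SE 0.70) without it. Organoid values were 1.602, 4.47 and 2.21 CPM against 0.209, 0.844 and 0.149 CPM. These groups did not overlap, with a log2 fold change of -2.70 (SE 0.65) on 118 counts over the 3 RNF138 fl/fl libraries and 21 over the other 3.

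Cyp2c69 had the same direction in tissue and was not detected in the organoids. In colitis it had 19.95, 15.5 and 24.2 CPM in RNF138 fl/fl and 2.58, 2.06 and 1.31 CPM in those labelled RNF138-/-. The groups did not overlap, the log2 fold change was -3.31 (SE 0.32), and it was -2.96 (SE 0.39) without the 2 libraries with little Hoxb13. In CAC the RNF138 fl/fl libraries had 2.94, 5.62 and 1.94 CPM and those labelled RNF138-/- 0, 0 and 1 counts. The groups did not overlap with or without RNF138 fl/fl library 3, the lowest of its group. Pooled, 185 counts against 1 count gave a ratio of 256 (exact binomial 95% interval 45.3 to 10146, counting error only). With 0 counts in all 6 organoid libraries, its level there was at least 50.2-fold lower than in CAC, taking 3 counts over the group as the limit that 0 allows.

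Over all genes tested, 0.0902% passed an adjusted p under 0.05 with a 2-fold change between genotypes in colitis (edgeR quasi-likelihood test), 5.37% in CAC and 15% in the organoids. The members past these thresholds were 2 of 4 tested in colitis (Cyp2c68 and Cyp2c69), 2 of 4 in CAC (Cyp2c55 and Cyp2c69) and 2 of 2 in the organoids (Cyp2c55 and Cyp2c68). The groups did not overlap for 3 of the 5 members of colitis libraries (background 17.1% of all genes tested), for 3 of those of CAC (background 44.2%) and for 2 of those of the organoids (background 53.6%). In CAC, Cyp2c55 at -9.56 lay inside the thresholds, and Cyp2c65 at -8.02 and Cyp2c68 at -2.74 lay outside. Nothing is read from these counts, since the genes were chosen on these contrasts.

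The level per exon length, in reads per kilobase of exon and library size (RPKM, the CPM divided by the exon length in kilobases), shows how the make-up of the cluster differed. In RNF138 fl/fl colitis Cyp2c55 came first at 332 ± 84.8 RPKM (SD, n = 3), then Cyp2c68 at 40.8 ± 12.8, Cyp2c65 at 14.8 ± 6.42 and Cyp2c69 at 11.6 ± 2.55, of which the last 2 did not differ beyond their spread. In colitis labelled RNF138-/- Cyp2c55 was again first at 582 ± 321 RPKM but Cyp2c65 was second at 109 ± 79.0, and Cyp2c68 stood at 4.42 ± 1.82 RPKM, above Cyp2c69 at 1.16 ± 0.372 in every library. Cyp2c66 at 2.36 ± 3.74 RPKM was not apart from either beyond its spread. In CAC labelled RNF138-/- Cyp2c68 was first at 3.32 ± 3.10 RPKM, before Cyp2c55 at 0.502 ± 0.482 and Cyp2c65 at 0.346 ± 0.250. Cyp2c68 was above Cyp2c55 in each of these 3 libraries, although the group ranges overlapped, while Cyp2c55 and Cyp2c65 did not differ beyond their spread. In the organoids Cyp2c55 was first again, at 3.75 ± 3.23 RPKM in RNF138 fl/fl and 1.09 ± 0.154 in those labelled RNF138-/-, before Cyp2c68 at 1.6 ± 0.876 and 0.232 ± 0.224. In RNF138 fl/fl organoids these did not differ beyond their spread, and in library 2 Cyp2c68 was the higher of the pair (2.59 against 1.41 RPKM).

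Cyp2c68 and Cyp2c69 together made 12.8% to 13.5% of the members' summed RPKM in RNF138 fl/fl colitis and 0.440% to 2.35% in colitis labelled RNF138-/-. In CAC they made 60.2% and 41.2% in RNF138 fl/fl libraries 1 and 2 but 0.291% in library 3, and 61.8% to 86.6% in those labelled RNF138-/-. The share in RNF138 fl/fl CAC library 3, which had little Hoxb13, was thus under those of all colitis libraries. Among the colitis libraries labelled RNF138-/- it was highest in library 1, in which Hoxb13 was not low.

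**Figure D2:**
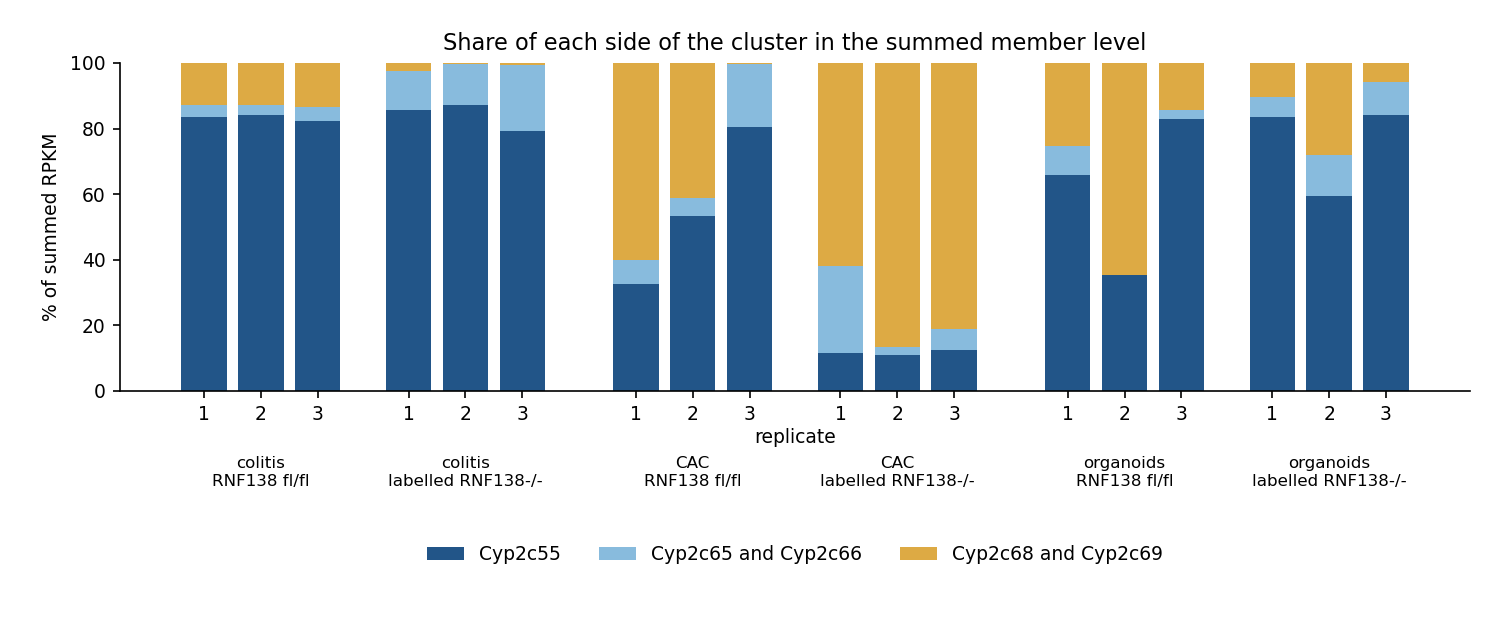
Share (% of the members' summed RPKM) of Cyp2c55, of Cyp2c65 with Cyp2c66, and of Cyp2c68 with Cyp2c69 in each library, by model, genotype and replicate. Cyp2c68 and Cyp2c69 hold 12.8% to 13.5% in RNF138 fl/fl colitis, at most 2.35% in colitis labelled RNF138-/- and 61.8% to 86.6% in CAC labelled RNF138-/-.

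**Figure D3:**
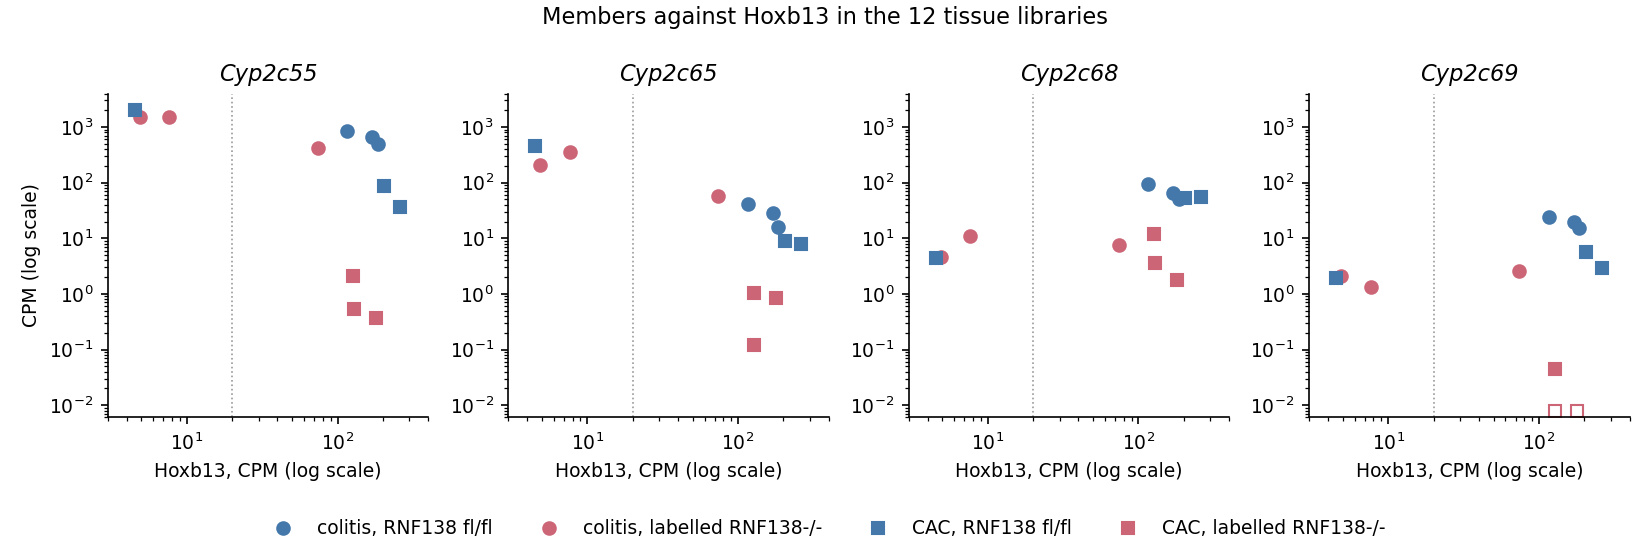
CPM of 4 members against CPM of Hoxb13 (both log axes) in the 12 tissue libraries, with circles for colitis, squares for CAC, open symbols for 0 counts and a dotted line at 20 CPM of Hoxb13. The 3 libraries left of the line lie at 1527 to 2021 CPM of Cyp2c55 and 4.35 to 10.8 CPM of Cyp2c68.

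Averaged over the genotypes, 3 of the 5 members were lower in CAC than in colitis (edgeR, adjusted p under 0.05 and 2-fold), where 28% of all genes tested passed in either direction. Cyp2c55 had a log2 difference of -4.997 (SE 0.86, adjusted p = 1.69e-04 by edgeR), Cyp2c65 one of -2.89 (SE 0.88, adjusted p = 0.0109) and Cyp2c69 one of -4.47 (SE 0.43, adjusted p = 4.96e-06). For Cyp2c68 the log2 difference was -0.65 (SE 0.52, adjusted p = 0.3) and for Cyp2c66 -3.19 (SE 2.55, adjusted p = 0.315). Exact permutation tests on log2 CPM, two-sided with 6 libraries against 6 and a smallest possible p of 0.00216, gave p = 0.0152 for Cyp2c55, 0.0519 for Cyp2c65, 0.348 for Cyp2c66, 0.312 for Cyp2c68 and 0.039 for Cyp2c69 (10 such tests were run over all libraries, without adjustment). For Cyp2c65 the permutation thus missed the threshold that the fitted model passed. No permutation p is given without the 3 libraries with little Hoxb13, since the genotypes are then unequal in number (2 and 3 in CAC, 3 and 1 in colitis) and the genotype differences would enter it.

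Within single genotypes the values are given without a test, because they also hold the genotype differences by which the genes were chosen. Among RNF138 fl/fl libraries the log2 difference was 0.16 for Cyp2c55, 2.54 for Cyp2c65, -0.89 for Cyp2c68 and -2.48 for Cyp2c69. Among libraries labelled RNF138-/- it was -10.16 for Cyp2c55, -8.32 for Cyp2c65, -0.41 for Cyp2c68 and -6.46 for Cyp2c69. The RNF138 fl/fl values of Cyp2c55 and Cyp2c65 rest on CAC library 3, since libraries 1 and 2 had means of 62.7 CPM of Cyp2c55 and 8.38 CPM of Cyp2c65 against 662 and 28.4 CPM in RNF138 fl/fl colitis, which turns the direction of both. Without the 3 libraries with little Hoxb13 the log2 differences over both genotypes were -6.05 for Cyp2c55, -4.10 for Cyp2c65, -0.37 for Cyp2c68 and -4.53 for Cyp2c69.

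From CAC to the organoids 4 of the 5 members were lower, where 45.4% of all genes tested passed in either direction and the median gene was at -0.18 on the log2 scale. Cyp2c68 had a log2 difference of -3.74 (SE 0.63, edgeR adjusted p = 6.76e-05). Its log2 difference was -3.76 among RNF138 fl/fl libraries and -3.71 among those labelled RNF138-/-. Cyp2c65 fell by 4.89 (SE 1.25, edgeR adjusted p = 0.00246) and Cyp2c55 by 2.74 (SE 0.85, adjusted p = 0.0086). Cyp2c69 passed as well (edgeR adjusted p = 0.00524), but it had 0 counts in the organoids and entered the test only through tissue libraries. Its direction was thus fixed, and nothing is read from its call. The log2 difference of Cyp2c65 was -2.73 (edgeR adjusted p = 0.00225) without RNF138 fl/fl CAC library 3 and -1.11 among libraries labelled RNF138-/- alone. The fall of Cyp2c55 was -0.96 (adjusted p = 0.0984) without RNF138 fl/fl CAC library 3 and -2.18 (adjusted p = 0.0682) without CAC library 3 labelled RNF138-/-, and among libraries labelled RNF138-/- alone the value was 1.10. Without CAC library 3 labelled RNF138-/-, which held the only count of Cyp2c69 in its group, Cyp2c69 did not pass either, and 2 of the 4 calls were left. Exact permutation tests gave p = 0.0173 for Cyp2c68, 0.0325 for Cyp2c65, 0.0606 for Cyp2c69 and 0.407 for Cyp2c55, so for Cyp2c55 and Cyp2c69 the permutation of libraries missed the threshold that the fitted model passed. Cyp2c66 had 19 counts in 1 CAC library and none in the organoids.

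**Figure D4:**
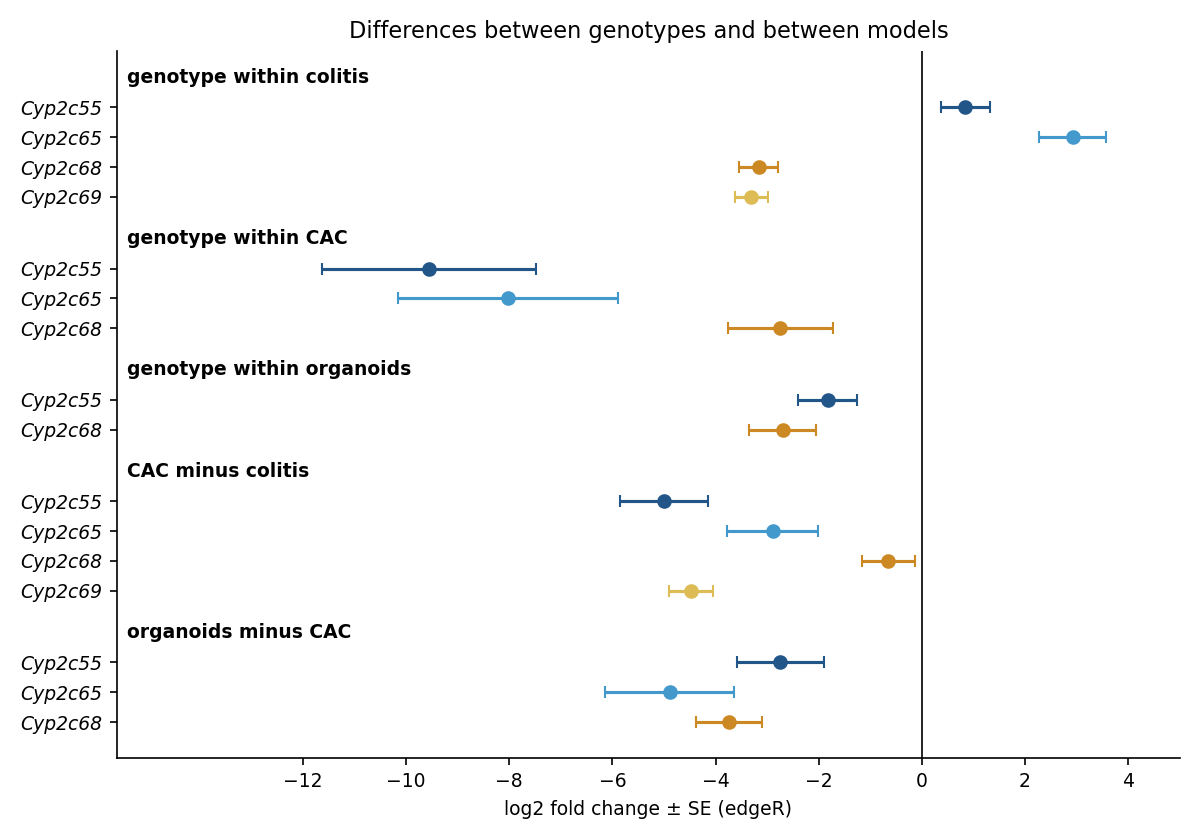
Log2 fold change with its SE (bars, edgeR) of each member (RNF138-/- label minus RNF138 fl/fl) within each model, and between models averaged over the genotypes, for members that had over 3 counts in both groups and passed the filter. In colitis Cyp2c55 and Cyp2c65 lie above 0 and Cyp2c68 and Cyp2c69 near -3, whereas in CAC and the organoids every plotted genotype value is below 0.

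Cell markers moved in both directions between genotypes in CAC. The summed level of 12 surface colonocyte markers was 8396 to 30353 CPM in RNF138 fl/fl CAC and 1716 to 3934 CPM in CAC labelled RNF138-/- (3 of 12 genes lower at the thresholds, median log2 fold change -3.64), against 12730 to 15870 and 15673 to 20028 CPM in colitis. Goblet cell markers were at 14317 to 44497 against 2204 to 3471 CPM in CAC (6 of 10 lower) and smooth muscle markers at 2753 to 8788 against 138.3 to 275 CPM (8 of 8 lower). B and plasma cell markers (6 of 8 lower) and fat markers (4 of 5 tested lower) went the same way. Stem and progenitor markers were at 898.7 to 1023 CPM in RNF138 fl/fl and 1797 to 2179 CPM in CAC labelled RNF138-/- (1 of 10 higher at the thresholds, median log2 fold change 1.64). The 9 pan-epithelial markers were at 8717 to 14514 against 7547 to 8948 CPM, with none past the thresholds by edgeR (3 at an unadjusted p under 0.05). Relative to those 9 genes the members' summed CPM was 8.38, 17.95 and 172 per 1000 in RNF138 fl/fl CAC and 0.332, 0.568 and 1.97 in CAC labelled RNF138-/-, which did not overlap. In bulk tissue, fewer cells that express a gene and less RNA of it per cell cannot be told apart, and the part of these cell types in the members' difference was not tested. Small intestine markers (9 genes) summed to 1345 CPM in RNF138 fl/fl CAC library 3 against 71.2 and 122 in the other 2, and to 710 to 1013 CPM in colitis labelled RNF138-/- against 403 to 558 CPM in RNF138 fl/fl colitis. In colitis labelled RNF138-/-, T cell markers were also higher (46.1 to 56.7 against 26.8 to 28.4 CPM), as were fat markers (58.2 to 199 against 34.3 to 49.9 CPM). Distal colon markers were lower (27.2 to 130 against 171 to 258 CPM). None of the genes in these 3 lists passed the thresholds in colitis.

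In the organoids, fibroblast markers (8 genes) summed to 8950 to 23073 CPM in RNF138 fl/fl and 40147 to 49573 CPM in those labelled RNF138-/-, against at most 1819 CPM in tissue. The pan-epithelial markers were at 14000 to 15237 against 7489 to 10817 CPM (1 of 9 lower at the thresholds), and other marker lists moved in both directions. The part of these cell types in the members' organoid differences was not tested. Xist was at 386 to 460 CPM and Ddx3y at 0 in the RNF138 fl/fl organoids, while Xist was at most 0.158 CPM and Ddx3y at 150 to 184 CPM in those labelled RNF138-/-, so sex and genotype cannot be told apart there. Tissue libraries all had Ddx3y, at 18.4 to 72.9 CPM, and at most 0.584 CPM of Xist.

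The enzymes before and after the members and the regulators of their transcription made 123 genes of the file in 10 lists. In colitis none of 92 tested passed the thresholds by edgeR, DESeq2 called 9 and the fit with the replicate number as a block called 2. An unadjusted p under 0.05, at any fold change, was found for 21 of the 92. Over all 16623 genes, 509 were higher and 235 lower at that p with a 2-fold change as well. These counts differ in threshold and cannot be set against each other. In CAC 1 of 92 was higher (Alox12e, an epidermal lipoxygenase) and 15 were lower, beside 5.37% of all genes called. The count of 16 fell to between 0 and 4 when RNF138 fl/fl library 1 (4) or any of libraries 1, 2 and 3 labelled RNF138-/- (0, 0 and 1) was left out. Without RNF138 fl/fl library 3 it was 21. In the organoids 11 of 88 were higher and 14 lower, beside 15% of all genes called. The median log2 fold change of the lists together was 0.14, -0.53 and 0.06, beside 0.02, 0.01 and -0.04 over all genes tested.

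Of the 22 regulators tested in CAC, the RNF138-/- label went with a lower level of 4. Nr1i2, the xenobiotic receptor PXR, had 67.3, 50.8 and 75.8 CPM in RNF138 fl/fl and 30.0, 25.1 and 32.8 CPM in those labelled RNF138-/- (log2 fold change -1.19, SE 0.21, edgeR adjusted p = 0.0343). Cdx2, a homeobox factor of intestinal identity, had 43.1, 92.9 and 235 against 14.1, 7.81 and 3.36 CPM (-3.95, SE 0.81, adjusted p = 0.0446). Vdr, the vitamin D receptor, was at -2.77 (SE 0.49, adjusted p = 0.0358) and Cdx1 at -1.28 (SE 0.21, adjusted p = 0.031). For each of these 4 genes the groups did not overlap. Hnf4a, whose motif stands upstream of 3 members, had 494 to 835 against 286 to 308 CPM (-1.13, SE 0.25, adjusted p = 0.0508), which missed the adjusted p threshold. Without RNF138 fl/fl library 3 Hnf4a was at -0.81 (SE 0.13, edgeR adjusted p = 0.0224), under the 2-fold threshold, and Nr1i2 at -1.01 (SE 0.18, adjusted p = 0.0287). The call of Nr1i2 was lost without RNF138 fl/fl library 1 (adjusted p = 0.0687) and without library 1, 2 or 3 labelled RNF138-/- (0.104, 0.149 and 0.0879). Nr1i3 had at most 1.25 CPM in any library. In colitis the same genes lay within a log2 fold change of -0.44 (Cdx1) to 0.23 (Cdx2), none past the thresholds (edgeR adjusted p between 0.739 and 0.922), beside -3.16 for Cyp2c68 and -3.31 for Cyp2c69.

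Of the PXR and CAR targets, 5 of 15 tested were lower in CAC labelled RNF138-/-, namely the carboxylesterase Ces2c (-4.80), Aldh1a7 (-3.26), the efflux pump Abcb1a (-3.20), the sulfotransferase Sult1b1 (-2.91) and the glutathione transferase Gstm3 (-2.21). Among other P450 enzymes 2 of 8 listed here with the epoxygenases (Cyp2d9 at -3.77 and Cyp2d22 at -1.91) were lower. So were 2 of 9 listed omega-hydroxylases (Cyp4f14 at -5.81 and Cyp4f16 at -1.03). In the cyclooxygenase branch Hpgd (-3.13) and Ptgis (-2.12) were lower. The activity of the listed enzymes was not measured. None of 5 redox partners, 4 epoxide hydrolases and 12 genes of arachidonate release passed by edgeR in CAC (2, 1 and 7 at an unadjusted p under 0.05). Por had 105 to 143 CPM in RNF138 fl/fl and 107 to 128 in those labelled RNF138-/- (-0.04, SE 0.19, adjusted p = 0.9). Ephx2 had 26.1, 11.6 and 27.7 against 8.61, 3.08 and 5.83 CPM (-1.95, SE 0.49, edgeR adjusted p = 0.059). Its adjusted p was 0.0868 without RNF138 fl/fl library 3 (-1.69) but passed the threshold with no filter (0.0332), the fit of all 18 libraries (0.00612), the replicate block (0.0243) and DESeq2 (0.00162), at -1.96 to -1.90.

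In the organoids the lists moved in both directions. The cyclooxygenase branch had Ptgis (1.65), Ptgs1 (1.42), Ptges (1.39) and Ptgs2 (1.32) higher and Hpgds (-2.30) and Ptgds (-1.61) lower in those labelled RNF138-/-. Of arachidonate release, Fads1 (1.07) and Pla2g4a (1.01) were higher and Pla2g2a (-2.38), Pla2g5 (-1.46) and Pla2g12a (-1.03) lower. Among the genes listed with the epoxygenases Cyp2d9 (2.29), Cyp2j9 (1.96) and Cyp2d22 (1.49) were higher and Cyp2d10 (-1.33) lower. Among listed omega-hydroxylases Cyp4f40 (2.15) was higher and Cyp4b1 (-3.38) and Cyp4f39 (-1.36) lower. Rora (1.15) was higher and Cdx2 (-1.24), Abcc2 (-1.61), Gstm3 (-1.08), Gstm1 (-1.03), Ephx4 (-1.6) and Alox12 (-1.01) were lower, while Nr1i2 (0.10, edgeR adjusted p = 0.835) and Hnf4a (0.36, adjusted p = 0.299) did not pass the test. Between models, 10 of 98 listed genes tested were higher and 26 lower in CAC than in colitis (28% of all genes called), and 18 were higher and 37 lower in the organoids than in CAC (45.4% of all genes called), where Nr1i2 was at -2.46 (edgeR adjusted p = 5.76e-08), Hnf4a at -1.67 (adjusted p = 7.27e-07) and Por at 1.81 (adjusted p = 2.41e-07).

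**Figure D5:**
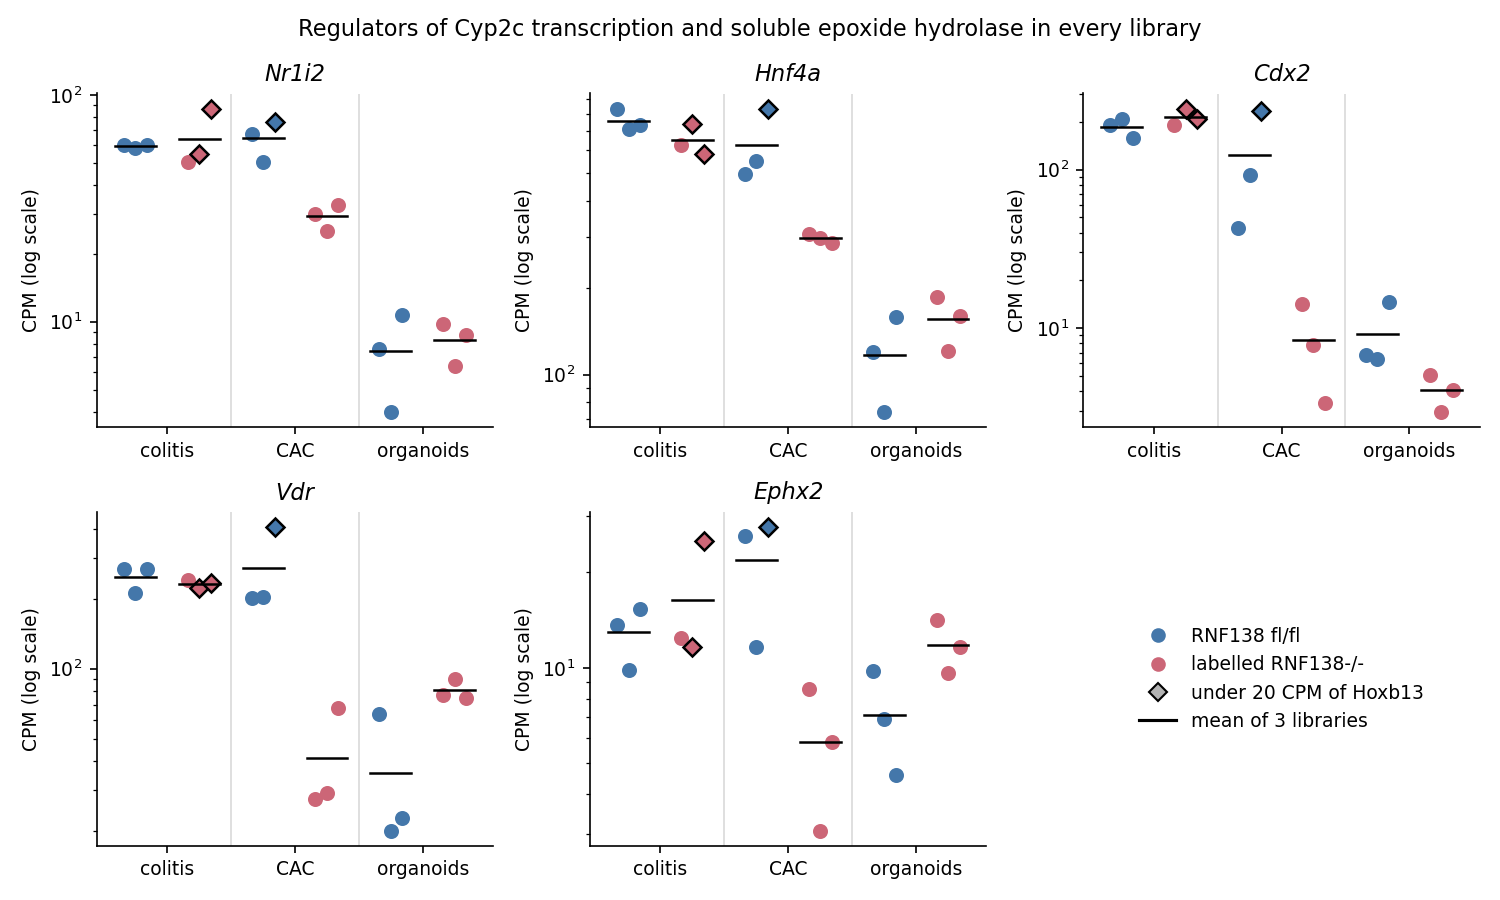
CPM (log axis, scaled for each gene) of Nr1i2, Hnf4a, Cdx2, Vdr and Ephx2 in each library, by model and genotype, with the mean of 3 libraries as a line and diamonds for libraries under 20 CPM of Hoxb13. In CAC all 3 libraries labelled RNF138-/- lie below all 3 RNF138 fl/fl libraries for each of the 5 genes, whereas in colitis the genotypes overlap.

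The genes whose level over the 12 tissue libraries was most like the mean of the 5 members were Sult1a1, Chgb, Nr5a2, Dgkh, Cdkn1b, Hadh, Gm8989, Gm1123, Selenop and Slc25a34, with Pearson r between 0.973 and 0.985 among 12362 genes. Sult1a1, the closest, is a phenol sulfotransferase, and Nr5a2 is a nuclear receptor of intestinal crypts. For the mean of Cyp2c55, Cyp2c65 and Cyp2c66 the closest were the carnitine transporter Slc22a5 (0.981), Cyp4b1 (0.980) and Naaladl1 (0.979), and for the mean of Cyp2c68 and Cyp2c69 the serotonin receptor Htr4 (0.945), Prkacb (0.941) and Xpr1 (0.935). Neither set shared a gene with the other among its closest 10. These r are descriptions over libraries that share genotype, model and, in 3, little Hoxb13, and the last 2 rankings were added after the values were seen.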

How the data were processed

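RNA from 18 libraries was used. The authors deposited read counts per gene as whole numbers, without normalization, and a table of their own comparisons (log2 ratios and p-values), which was not used. The submitters' processing notes name mm10, STAR 2.6.1d, HTSeq 0.11.2 and DESeq2, the paper Cufflinks and Gencode v.M8. How reads with several positions were treated is not given in the sources used here. Identifiers were matched to GENCODE M21 without version (36700 genes, 99.8%). Total counts were 11514716 to 24390082 per library, and a count of 0 allows up to 3.

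Counts were TMM-normalized and fitted with edgeR 4.0.16 (R 4.3.3, filterByExpr, glmQLFit, glmQLFTest, Benjamini-Hochberg adjustment over all genes tested), within each model for genotype and over 18 libraries for models. CPM in the text are TMM-normalized over 18 libraries, and RPKM divide them by exon length. Exact permutation tests used log2(CPM + 0.1), and likeness log2(CPM + 0.5) among genes of at least 5 CPM. DESeq2 1.42.0, other scalings and filters, the replicate number as a block, left-out libraries, an all-library fit, single genotypes, a Y-linked covariate and a scaling to epithelial markers served as alternatives, and leaving out libraries under 20 CPM of Hoxb13 was added after the values were seen. Same-numbered colitis libraries correlated at r = 0.251, 0.106 and 0.538 and different-numbered ones at -0.411 to 0.281. Whether the numbers pair libraries cannot be told from these values. Motifs were searched on both strands of the 250 bases upstream only. The fits were tested on simulated data, and no library was a copy of another (chi-square per degree of freedom 7.44 or more).

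The members and lists were chosen with earlier results of these data known. Named genes are the members, Rnf138, Por, Ephx2, Nr1i2, Nr1i3, Hnf4a, other Cyp2c genes with a group mean of at least 1 CPM (none reached it), up to 6 called genes per list and comparison by size, the 10 genes most like the members and those sharing most windows with a member. Called list genes between models, and the lists that no paragraph counts, were not named. Others (Hoxb13, Hoxd13, Hoxa13, Hoxd11, Ttr, Alb, Xist, Ddx3y, Gm23800, Cyp2c67) were named after their values were seen.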

Additional observations from a re-analysis of the deposited data

Results flagged for a closer look

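Cyp2c65 had opposite genotype differences in the tissue models, which was not tested as such. All 3 colitis libraries labelled RNF138-/- were above all 3 RNF138 fl/fl libraries, with a log2 fold change of 2.92, and all 3 CAC libraries labelled RNF138-/- were below, with -8.02. Of these 6 colitis and 6 CAC libraries the 3 with little Hoxb13 held the 3 highest values, and without them the log2 fold changes were 0.98 and -3.66.

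For the regulators named below and Ephx2 the difference between models was tested as an interaction in 1 edgeR fit of all 18 libraries, adjusted over all genes. Other regulators were in the same fit, some of which passed, and their values are not given here. The CAC genotype difference minus that in colitis was -4.12 on the log2 scale for Cdx2 (edgeR adjusted p = 0.00338), -2.63 for Vdr (0.00974), -2.27 for Ephx2 (0.0203) and -1.28 for Nr1i2 (0.0436), while Hnf4a at -0.87 (0.111) and Cdx1 at -0.80 (0.374) did not pass. The organoid difference minus that in CAC was 3.88 for Vdr (edgeR adjusted p = 5.01e-04), 2.68 for Cdx2 (0.0208), 2.62 for Ephx2 (0.0061), 1.47 for Hnf4a (0.00843) and 1.27 for Nr1i2 (0.0357), while Cdx1 at 1.17 (0.15) did not pass. The same CAC libraries enter both sets of values.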

How the results depend on the processing

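Summed over the members, the genotype difference kept its direction for CAC and organoids under every alternative run, between -6.80 and -4.46 and between -2.02 and -1.14 on the log2 scale, where the last value, scaled to epithelial markers (-1.80 otherwise), moved by more than the spread. In colitis it was 0.63 and turned to -0.65 without the libraries under 20 CPM of Hoxb13, and that of Cyp2c55, Cyp2c65 and Cyp2c66 turned from 0.79 to -0.50, with a single library labelled RNF138-/- left, which is assumed to vary like the others. That of Cyp2c68 and Cyp2c69 stayed between -3.44 and -2.99 in colitis.

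Lower members from colitis to CAC numbered 3, and 3 without any single library. In RNF138 fl/fl libraries alone they numbered 1, where Cyp2c55 (0.16), Cyp2c65 (2.54) and Cyp2c66 (2.97) turned, all through CAC library 3, and in those labelled RNF138-/- alone 4. From CAC to the organoids they numbered 4, including Cyp2c69, whose 0 organoid counts left only that direction. The number was between 2 and 4 with 1 library left out. It was 4 in RNF138 fl/fl libraries alone and 1 in libraries labelled RNF138-/- alone, where Cyp2c55 turned to 1.10. Counts within 1 genotype hold the differences by which the genes were chosen and are descriptions, not tests. With CAC library 3 labelled RNF138-/- left out the count was 2. The cause was not tested. Calls among list genes in colitis rose from 0 to 9 with DESeq2, 12 without a filter, 2 with the replicate block, 3 without the libraries under 20 CPM of Hoxb13 (again 1 library against 3) and 0 to 1 with 1 library left out. In CAC the 16 calls became 38 with DESeq2, 29 without a filter, 41 in a fit of all 18 libraries and 0 to 21 with 1 library left out, and in the organoids the 25 became 16 to 29.

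With the replicate block the sum of the members was 0.63 (colitis), -5.90 (CAC) and -1.80 (organoids), equal by construction with complete pairs, and the block changed no other call count by over 1.5 times. Same-numbered libraries correlated at 0.0276, 0.221 and 0.0811 (CAC) and -0.217, -0.0827 and 0.0688 (organoids). Different-numbered ones were at -0.158 to 0.0525 (CAC) and -0.165 to 0.224 (organoids). Whether the numbers pair libraries in these models cannot be told from such values. The block gave 22 list calls in each. Depth limits Cyp2c66 in most libraries, though not in colitis library 3 labelled RNF138-/- (257 counts). Depth also limits Cyp2c69 in the organoids and in CAC labelled RNF138-/-, where 0 or 1 count was found.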
